A study of Mus musculus with 18 samples.

Results

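Solute carriers are the membrane proteins that move ions, metals, nutrients and metabolites across the cell surface and the membranes of organelles. The genes described here are the 148 of 21967 in a mouse count table whose symbol is Slc, a family number, the letter a and a member number, and whose raw counts summed to at least 180 over 18 RNA-seq libraries. The table listed 332 symbols of that form, of which 30 had no count in any library and 179 summed to less than 180. Of the 153 above that limit, 5 were left out by name (Slc4a1, Slc11a2, Slc40a1, Slc25a37 and Slc25a38), and Slc2a1, the sixth named, had 32 counts in CFU-E and 48 in PreCFU-E. Summed counts thus chose the members, whose levels are given as a description. Just inside the limit lay Slc10a3 with 191 counts, Slc22a15 with 218 and Slc25a43 with 229, and outside it Slc25a27 with 170 and Slc22a27 with 151.

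The libraries came from sorted bone marrow erythroid progenitors of 2 stages, the later CFU-E (colony-forming unit-erythroid) and the earlier PreCFU-E. Scf encodes stem cell factor, the ligand of the receptor KIT. The mice were of 3 genotypes. Scf KO/FL;Lepr-Cre mice, here Lepr-Cre, carried 1 null and 1 floxed Scf allele and a Cre driven from the leptin receptor gene, which is active in perivascular stromal cells of the marrow and not in the progenitors sorted. Scf KO/FL mice carried the same null and floxed alleles without Cre, so the null allele is shared by both. Scf FL/FL mice carried 2 floxed alleles without Cre. Each group held 3 libraries from 3 mice lettered A, B and C, B being female and A and C male, and each of the 9 mice gave both cell types. Ages are not given in the labels. The Scf gene, Kitl in the table, had 1 count in each of 2 libraries and 0 in the other 16, so the sorted cells cannot check its deletion in the stroma.

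In erythroid cells, solute carriers bring in the iron, other metals, amino acids, nucleosides and folate that growth and haemoglobin synthesis draw on, carry substrates and metals into mitochondria where haem synthesis begins and ends, and later set the ion content and gas exchange of the red cell. Zinc transporters fall into families that work in opposite directions, SLC39 proteins into the cytosol and SLC30 proteins out of it. Many amino acid transporters are exchangers, some of which need the heavy chain encoded by Slc3a2 to reach the surface. Signalling through KIT is required for the expansion of early erythroid progenitors.

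Library totals ran from 3541066 to 9389122 counts. Lepr-Cre CFU-E B had the fewest genes detected (10782) and counts for 138 of the 148 members, against 145 to 148 in the other libraries. Summed marker levels fitted the labelled lineage: 11 erythroid progenitor genes summed to between 5815 and 6999 CPM in every library, and lists for neutrophils, B cells, T and NK cells and macrophages summed to at most 6.47 CPM. A list of 6 megakaryocyte genes summed to between 24.4 and 53.03 CPM. Most of it was Vwf at 18.6 to 47.2 CPM, with Itga2b at up to 11.95 CPM. Pf4 and Gp1bb were each at or below 0.543 CPM. The part of this list in the results was not tested. The list for mast cells, basophils and eosinophils moved with both cell type and genotype and is given beside the genes concerned. CPM here means counts scaled to the library total, with TMM scaling over all 18 libraries. Adjusted p-values come from edgeR's quasi-likelihood test with Benjamini-Hochberg adjustment over all genes tested, and 0.05 was the threshold. In bulk RNA of sorted cells, fewer cells of a kind and less RNA per cell cannot be told apart.

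By substrate, the members comprised 36 mitochondrial carriers, 23 for amino acids, 20 for metals and haem, 16 for protons, bicarbonate and inorganic ions, 15 for sugars and monocarboxylates, 12 for organic ions, peptides and others, 11 for nucleosides and nucleotide sugars, 10 for vitamins, choline and cofactors, 3 for lipids and bile acids and 2 for phosphate. Scaled to exon length, levels spanned from 0.203 to 276 CPM per kb, with a median of 8.20. The 10 highest members held 42.4% of the summed level. Slc25a5 and Slc25a3, the ADP/ATP exchanger and the phosphate carrier of the inner mitochondrial membrane, led at 276 and 229.9 CPM per kb. They were followed by Slc25a21 (162), a carrier of oxodicarboxylates, by Slc16a1 (98.6), which moves lactate and pyruvate, and by Slc7a5 (80.7), the light chain of the large neutral amino acid exchanger LAT1. Slc25a4 (68.1), Slc29a1 (61.7), Slc43a3 (55.3), Slc38a5 (52.99) and Slc39a7 (50.3) completed the 10. Most exon bases of Slc39a7 overlap the same-strand model Gm20427, so its level is uncertain. Leading members of other classes were Slc14a1 (urea) at 49.6, Slc20a1 (phosphate) at 36, Slc19a1 (reduced folate) at 24.7 and Slc10a7 at 20.9 CPM per kb.

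**Figure D1:**
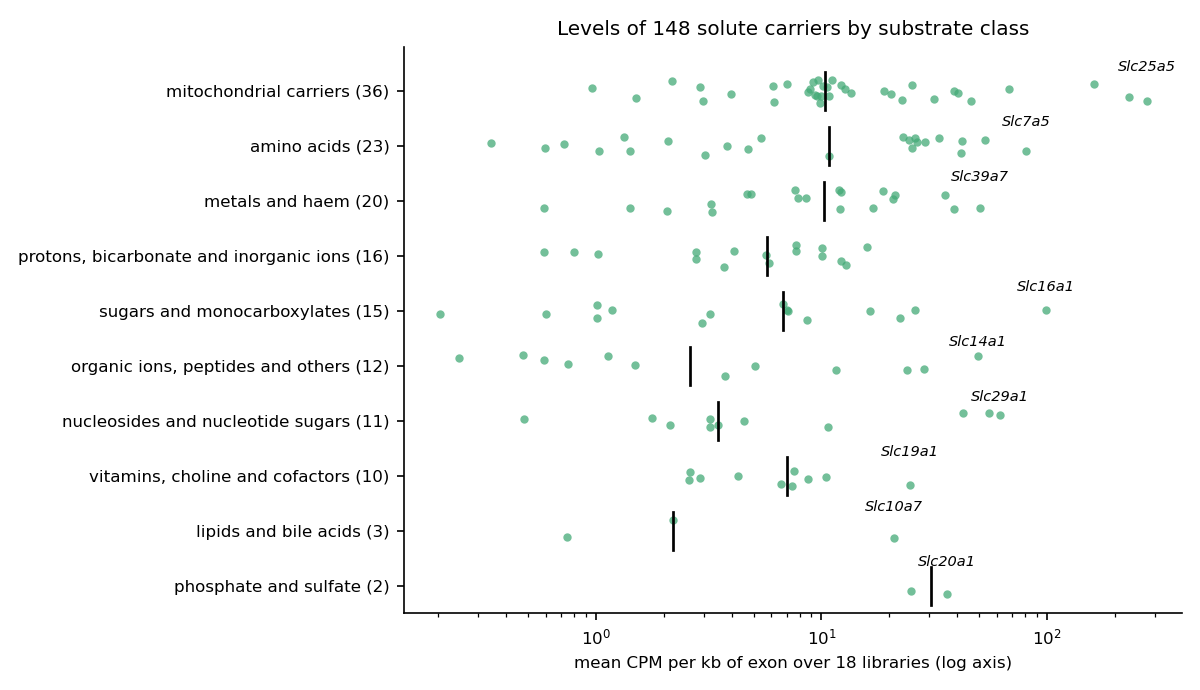
Mean level of each of the 148 members over 18 libraries, in CPM per kb of exon on a log axis, by substrate class with the number of members; the vertical line is the class median and the highest member is named except among the ions. The mitochondrial carriers Slc25a5 and Slc25a3 stand highest, and the class medians of mitochondrial, amino acid and metal carriers lie near 10 CPM per kb.

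Together the members took 9252 ± 371 CPM in Lepr-Cre CFU-E, 9060.3 ± 150.5 in KO/FL CFU-E and 9131 ± 129 in FL/FL CFU-E (mean ± SD, n = 3 each). In PreCFU-E the sums were 8561 ± 192 in Lepr-Cre, 8224 ± 145 in KO/FL and 8179.7 ± 219.7 in FL/FL. In each genotype the CFU-E sums lay above the PreCFU-E sums without overlap. The class of nucleosides and nucleotide sugars stood above the other genotypes in Lepr-Cre PreCFU-E, with 496 ± 27.7 CPM in Lepr-Cre PreCFU-E, against 397 ± 18.2 in KO/FL and 391 ± 1.62 in FL/FL. The ion class was lower in Lepr-Cre libraries than in any other of the same stage: it summed to 505 ± 13.7 CPM in Lepr-Cre CFU-E, against 595 ± 19.9 in KO/FL and 628 ± 67.3 in FL/FL CFU-E. These sums are descriptions and were not tested.

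The comparison of CFU-E with PreCFU-E shows how the transporter repertoire differs between the stages. Each mouse gave both cell types, but the counts in this paragraph come from a fit of group means without the mouse. Calls with the mouse as a block are given further on. In Lepr-Cre mice 10 of 148 members were higher and 8 lower in CFU-E, while 3.0% and 4.25% of the 10732 genes tested were called in those directions. In KO/FL mice the counts were 19 higher and 9 lower, against 6.89% and 7.18% of all genes, and in FL/FL mice 25 and 11, against 8.99% and 9.3%. For 7 members with fewer than 90 counts in 1 cell type the limit on summed counts itself favours a difference. Leaving those out, 9 of 141 members (6.38%) were higher in CFU-E of Lepr-Cre mice, 18 (12.8%) in KO/FL and 24 (17.02%) in FL/FL, and 5 (3.55%), 8 (5.67%) and 9 (6.38%) were lower. The shares called higher thus lay above the background and the shares called lower below it, in genes chosen for being well counted. The median step of these 141 members was close to 0 in every genotype, at log2 0.06 in Lepr-Cre, 0.03 in KO/FL and 0.02 in FL/FL, against -0.01, 0.00 and 0.01 for all genes. Among them 8 were called higher in all 3 genotypes (Slc16a10, Slc29a1, Slc38a9, Slc39a6, Slc39a8, Slc43a1, Slc43a3 and Slc46a3), which is 8 of 9, 18 and 24 in Lepr-Cre, KO/FL and FL/FL, and 2 were called lower in all 3 (Slc22a3 and Slc45a3), which is 2 of 5, 8 and 9.

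**Figure D2:**
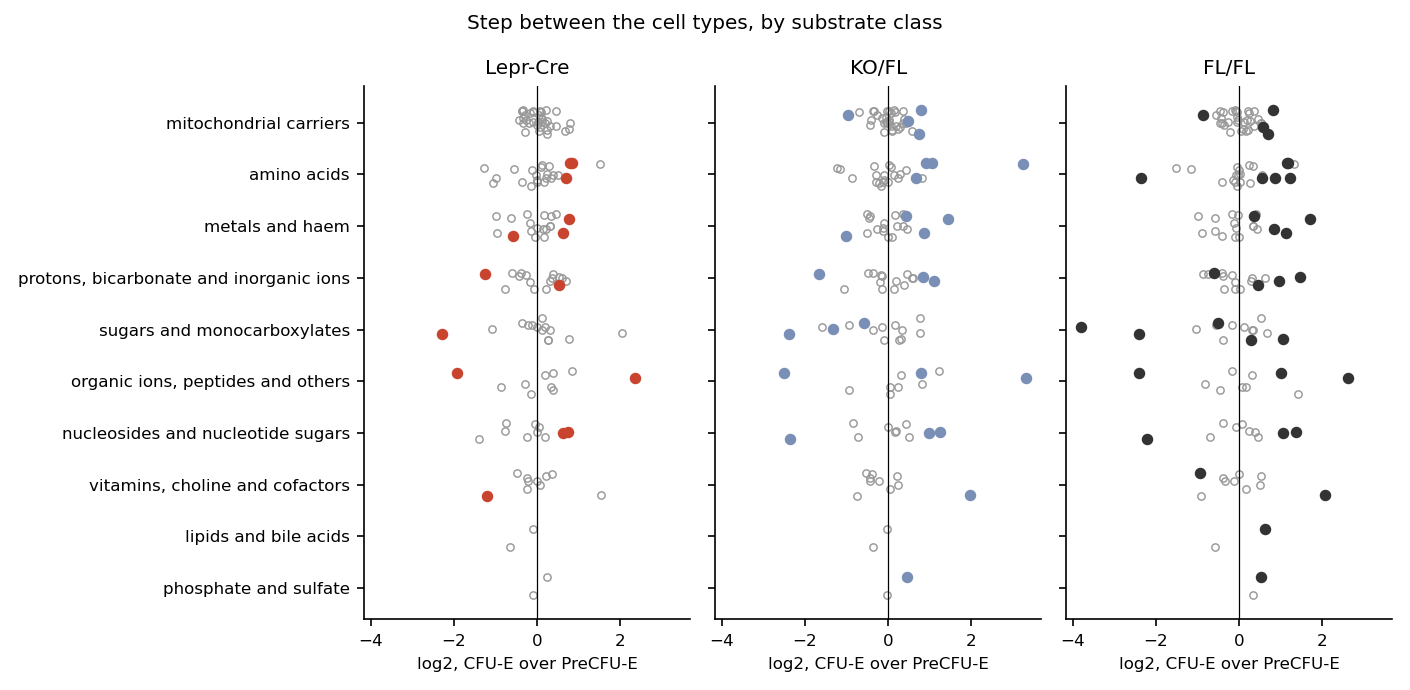
Step of each member between the cell types, as log2 of CFU-E over PreCFU-E, by substrate class in Lepr-Cre, KO/FL and FL/FL mice (141 members with at least 90 counts in both cell types); filled points passed adjusted p 0.05 and open points did not. Most members sit near 0 in every genotype. In each, the metal, nucleoside, amino acid, inorganic ion and organic ion classes hold filled points to the right.

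The comparisons of genotypes ask how the progenitors of Lepr-Cre mice differ from those of the other genotypes. KO/FL mice share the null allele with Lepr-Cre mice and lack the Cre. FL/FL mice lack both, so a difference from FL/FL cannot be assigned to the Cre alone. In CFU-E, Lepr-Cre against FL/FL, 6 of 146 members tested were higher and 4 lower, against 2.08% and 2.75% of 10192 genes. Against KO/FL edgeR called 1 higher and none lower, with 0.294% and 0.716% of all genes called. DESeq2 called 7 members there, 3 higher (Slc7a1, Slc7a5 and Slc16a6) and 4 lower (Slc8a1, Slc17a5, Slc26a1 and Slc38a9), with 0.485% and 0.894% of 15658 genes called. In PreCFU-E, Lepr-Cre against FL/FL, 6 of 147 were higher and 5 lower, against 2.89% and 3.24% of 10309 genes. Against KO/FL, 3 were higher and 4 lower, with 1.02% and 1.16% called. With 4.11% and 2.74% of members called in CFU-E and 4.08% and 3.4% in PreCFU-E, the shares called lower against FL/FL lay near the background. The shares called higher rest on 6 members at each stage, too few to set them apart from the background, and this was not tested. Against FL/FL, Slc16a1, Slc16a6 and Slc39a8 were higher and Slc8a1 was lower in both cell types, which is 3 of 6 higher members in either and 1 of 4 and 1 of 5 lower ones. The comparisons with KO/FL and with FL/FL share the Lepr-Cre libraries.

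Between KO/FL and FL/FL mice edgeR called no member in CFU-E and none in PreCFU-E. At an unadjusted p under 0.05 there were 3 of 146 and 5 of 147, and DESeq2 called 0 in both. Over all genes 0.0% were called higher and 0.0% lower in CFU-E, and 0.0% and 0.0% in PreCFU-E. The replicate letter pairs the PreCFU-E libraries of Lepr-Cre and FL/FL mice by the correlation of their deviations, and it also follows sex. With it as a block, 15 of 147 members (10.2%) were higher and 11 (7.48%) lower in Lepr-Cre PreCFU-E against FL/FL. In the same fit 8.3% and 7.08% of all genes were called. The change of the genotype difference with cell type was tested as an interaction. By edgeR no member passed against FL/FL or against KO/FL. Over all genes 0.14% were called higher and 0.214% lower against FL/FL and 0.0% and 0.0% against KO/FL. At an unadjusted p under 0.05 there were 13 and 8 members, and DESeq2 called 1 and 0. With the mouse as a block, edgeR called 3 members lower against FL/FL (Slc39a8, Slc43a3 and Slc12a4), with 0.494% of all genes called higher and 1.35% lower, and 0 members against KO/FL.

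With the block in the comparisons whose libraries pair, further members passed. In Lepr-Cre PreCFU-E against FL/FL, with the replicate letter as a block, the further calls included Slc24a3 (log2 -0.92, adjusted p = 1.16e-04), Slc25a24 (log2 0.70, adjusted p = 0.0187), Slc25a44 (log2 0.44, adjusted p = 0.0129), Slc25a4 (log2 0.35, adjusted p = 0.0137) and Slc25a3 (log2 0.21, adjusted p = 0.0306). They also included Slc45a3 (log2 -0.59, adjusted p = 0.0165), Slc26a1 (log2 -0.70, adjusted p = 0.0469), Slc17a9 (log2 -1.19, adjusted p = 0.0472), Slc7a6 (log2 1.22, adjusted p = 0.0341), Slc20a1 (log2 0.32, adjusted p = 0.0434) and Slc14a1 (log2 0.26, adjusted p = 0.0302). Between the stages, with the mouse as a block, further calls in Lepr-Cre mice included Slc26a1 (log2 0.69, adjusted p = 0.0278), Slc45a4 (log2 -0.34, adjusted p = 0.0214), Slc16a1 (log2 0.26, adjusted p = 0.017) and Slc12a2 (log2 -0.39, adjusted p = 0.0471). In KO/FL mice they included Slc31a1 (log2 0.46, adjusted p = 0.0319), Slc7a1 (log2 0.31, adjusted p = 0.0374), Slc16a1 (log2 0.27, adjusted p = 0.0111) and Slc14a1 (log2 0.31, adjusted p = 0.00955). Those in FL/FL mice included Slc24a3 (log2 -0.71, adjusted p = 0.00684), Slc25a4 (log2 -0.48, adjusted p = 9.30e-04), Slc39a11 (log2 -0.41, adjusted p = 0.0404), Slc25a51 (log2 0.26, adjusted p = 0.0374), Slc5a6 (log2 -0.98, adjusted p = 0.0497) and Slc14a1 (log2 0.31, adjusted p = 0.00674). The lists are not complete. Shares of all genes called with the mouse as a block are not given for these steps, so the calls describe single members.

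The members with the smallest p-values where few or none passed were Slc41a3, a magnesium transporter, Slc25a13 and Slc25a4 for KO/FL against FL/FL in CFU-E (log2 -0.61, -0.44 and 0.37, each with adjusted p = 1), and Slc41a3, Slc31a1 and Slc25a28 in PreCFU-E (log2 -0.64, 0.51 and -0.49, each with adjusted p = 1). For the interaction against FL/FL they were Slc43a3, Slc39a8 and Slc2a9 (adjusted p = 0.0626, 0.156 and 0.192), and against KO/FL Slc43a3, Slc30a10 and Slc39a8 (adjusted p = 0.442, 0.685 and 0.804). After Slc7a1, the smallest in Lepr-Cre against KO/FL CFU-E were Slc16a6 (log2 0.60, adjusted p = 0.0677) and Slc26a1 (log2 -0.80, adjusted p = 0.0678). The summed level of 7 stromal and endothelial markers was 5.27 to 6.26 CPM in Lepr-Cre CFU-E, 1.87 to 3.97 in KO/FL and 1.29 to 3.55 in FL/FL CFU-E, and 11.5 to 14.3 in Lepr-Cre PreCFU-E, 14.8 to 19.9 in KO/FL and 16.4 to 26.04 in FL/FL PreCFU-E. Their part in the genotype differences was not tested.

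**Figure D3:**
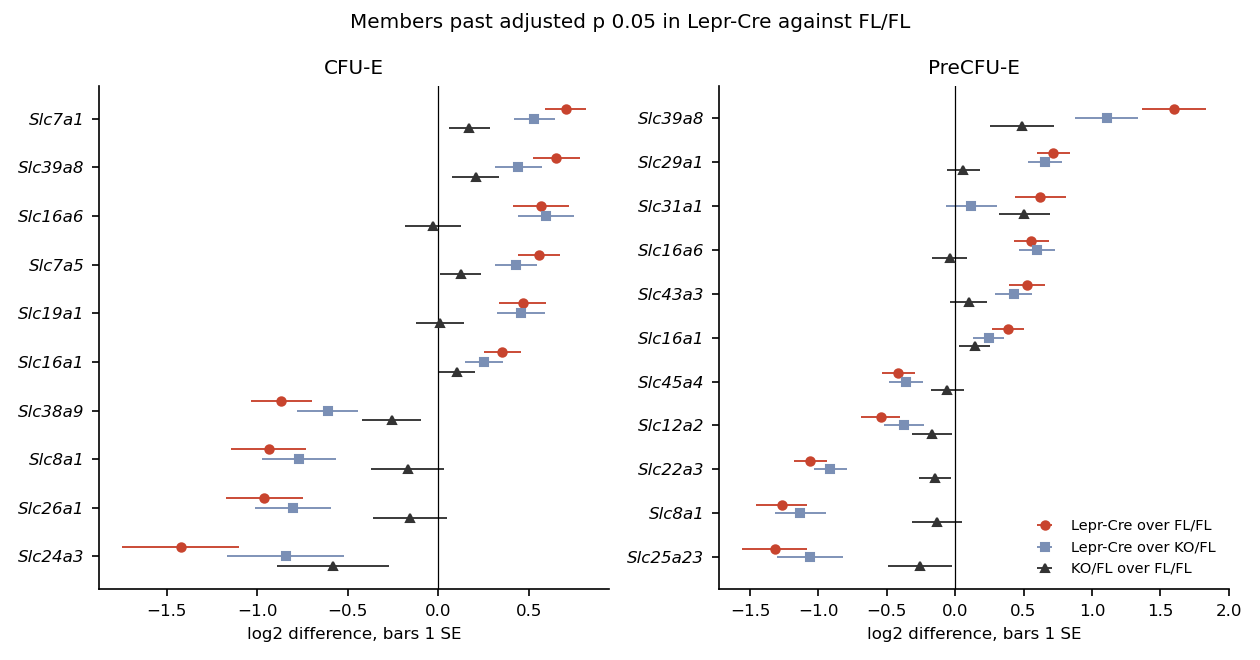
Genotype differences (log2 with bars of 1 SE) of the members past adjusted p 0.05 in Lepr-Cre against FL/FL, in CFU-E at the left and PreCFU-E at the right; circles are Lepr-Cre over FL/FL, squares Lepr-Cre over KO/FL and triangles KO/FL over FL/FL, 3 mice a genotype. The members were chosen on the circles; the triangles lie nearer to 0 than the circles for every member shown.

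Among the carriers of metals and haem, Slc30a10, which exports manganese from the cell, was counted almost only in CFU-E. Its values were 3.54, 16.7 and 4.54 CPM in Lepr-Cre CFU-E, against 3.14, 7.37 and 6.46 CPM in KO/FL and 8.53, 7.16 and 2.25 CPM in FL/FL CFU-E. In PreCFU-E they were 0.815, 0.904 and 0.643 CPM in Lepr-Cre PreCFU-E, against 0 in every KO/FL and FL/FL library. The 3 genotypes overlapped in CFU-E, where Lepr-Cre B was the highest library, and in PreCFU-E only Lepr-Cre mice had counts, 19 in all. In KO/FL mice the 138 counts of CFU-E against none in PreCFU-E make the level at least 32.0-fold higher, taking 3 counts over the group as the floor, and in FL/FL mice 128 counts against none make it at least 43.6-fold higher. The 19 counts of Lepr-Cre PreCFU-E put it at least 6.01-fold above FL/FL and at least 4.48-fold above KO/FL at that stage. Slc30a10 is one of the members with few counts in 1 cell type, so these values describe it without a test, and 533 bases of its exons lie opposite the model Gm2061. Its promoter window is shown because it is the member nearest to a switch between the stages, with the 6 bases of a GATA motif in capitals (RefSeq, GRCm38.p6, chr1:185454598-185454897, plus strand, from 250 bases before to 50 after the annotated start).
Slc30a10 promoter: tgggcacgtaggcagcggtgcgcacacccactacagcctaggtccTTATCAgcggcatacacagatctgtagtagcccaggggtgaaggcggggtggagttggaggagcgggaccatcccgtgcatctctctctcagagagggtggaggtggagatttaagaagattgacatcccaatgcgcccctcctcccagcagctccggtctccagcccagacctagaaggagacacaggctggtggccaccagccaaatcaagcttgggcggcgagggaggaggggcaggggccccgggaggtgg

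GATA1 and GATA2, the zinc finger factors that act in turn in erythroid progenitors, bind such motifs. The letters searched on both strands were AGATAA, next to it AGATAG, and likewise TGATAA together with TGATAG, and 29.8% of 32851 RefSeq windows of 300 bases held at least 1 of them, against 21.2% of the 160 windows of the 115 members matched. CACCC, bound by Krüppel-like factors and able to overlap a GATA motif, was in 57.5% of all windows and 71.2% of the members' windows. The share with GATA letters was lower in the members than over all windows and that with CACCC higher; neither was tested, and a match is a description of the window.

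Slc39a8, which brings zinc, manganese and iron into the cytosol, was higher at the later stage and in Lepr-Cre mice. Its values were 154, 127 and 161 CPM in Lepr-Cre CFU-E, against 116, 97.2 and 113 CPM in KO/FL and 96.6, 101 and 86.1 CPM in FL/FL CFU-E. In PreCFU-E they were 76.9, 85.96 and 97.3 CPM in Lepr-Cre PreCFU-E, against 57.6, 38.7 and 25.6 CPM in KO/FL and 29.5, 34.5 and 22.3 CPM in FL/FL PreCFU-E. Every Lepr-Cre library lay above all others of its stage, and every CFU-E library lay above every PreCFU-E library of its own genotype. Lepr-Cre exceeded FL/FL by log2 0.65 ± 0.13 SE, adjusted p = 0.00454 in CFU-E and by log2 1.60 ± 0.23 SE, adjusted p = 1.94e-04 in PreCFU-E. Against KO/FL the difference was log2 0.44, adjusted p = 0.113 in CFU-E and log2 1.11 ± 0.23 SE, adjusted p = 0.0115 in PreCFU-E, the second a call lost without KO/FL PreCFU-E B (adjusted p 0.0979). The step to CFU-E was log2 0.76 ± 0.19 in Lepr-Cre, 1.44 ± 0.20 in KO/FL and 1.72 ± 0.20 in FL/FL, in all 3 mice of each, with adjusted p = 0.012, 8.60e-06 and 4.54e-07; the Lepr-Cre step missed the threshold without Lepr-Cre PreCFU-E A or Lepr-Cre CFU-E C (adjusted p 0.0635 to 0.0799). The difference between the Lepr-Cre and FL/FL steps was log2 -0.96 ± 0.27 SE, adjusted p = 0.156, and log2 -0.98, adjusted p = 0.00368 with the mouse as a block. Of the 2 annotated starts of Slc39a8, the window of the second is printed because it holds a GATA motif, 30 bases before the start, in the member that had the largest difference of the 6 higher in Lepr-Cre PreCFU-E (chr3:135825407-135825706, plus strand).
Slc39a8 promoter: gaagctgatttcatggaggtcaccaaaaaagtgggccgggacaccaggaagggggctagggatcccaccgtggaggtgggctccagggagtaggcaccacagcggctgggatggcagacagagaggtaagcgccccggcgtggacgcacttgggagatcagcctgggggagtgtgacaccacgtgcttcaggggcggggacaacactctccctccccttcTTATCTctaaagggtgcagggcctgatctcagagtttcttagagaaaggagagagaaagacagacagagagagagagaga

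Of the 19 metal and haem carriers other than Slc30a10, 2 were higher and 1 lower in CFU-E of Lepr-Cre mice, 3 and 1 in KO/FL and 4 and 0 in FL/FL. Over all genes 3.0%, 6.89% and 8.99% were called higher in Lepr-Cre, KO/FL and FL/FL mice and 4.25%, 7.18% and 9.3% lower. Slc39a6, a zinc importer, rose in all 3 genotypes (log2 0.63, 0.87 and 1.14 in Lepr-Cre, KO/FL and FL/FL), the Lepr-Cre call being lost without Lepr-Cre PreCFU-E A or B or Lepr-Cre CFU-E A, B or C (adjusted p 0.0871 to 0.25). Slc30a9, of the zinc exporter family, rose in KO/FL and FL/FL CFU-E by log2 0.44 and 0.37 (adjusted p = 0.0173 and 0.0386). Slc39a11, another SLC39 member, fell in CFU-E of Lepr-Cre (log2 -0.57, adjusted p = 0.044) and KO/FL mice (log2 -1.01, adjusted p = 1.25e-04). Slc31a1, the copper importer, had 46.5, 54.1 and 50.7 CPM in Lepr-Cre PreCFU-E, against 57.6, 42.95 and 39.3 CPM in KO/FL and 28.1, 36.2 and 34.6 CPM in FL/FL PreCFU-E. Lepr-Cre lay above FL/FL without overlap (log2 0.62, adjusted p = 0.0478) and overlapped KO/FL, and the call was lost on leaving out any 1 of the 6 libraries (adjusted p 0.07 to 0.206). Its step was log2 0.86, adjusted p = 3.97e-04 in FL/FL and log2 0.14 in Lepr-Cre mice, and these steps differed by log2 -0.72, adjusted p = 0.267. Another 3 carriers showed no call in any comparison: Slc48a1, which takes haem out of lysosomes, at 38.8 CPM per kb, and the zinc and metal transporters Slc30a1 and Slc39a14 at 4.87 and 1.42. In Lepr-Cre against FL/FL they differed by log2 -0.03, 0.29 and -0.30 in CFU-E and -0.10, 0.21 and -0.31 in PreCFU-E.

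**Figure D4:**
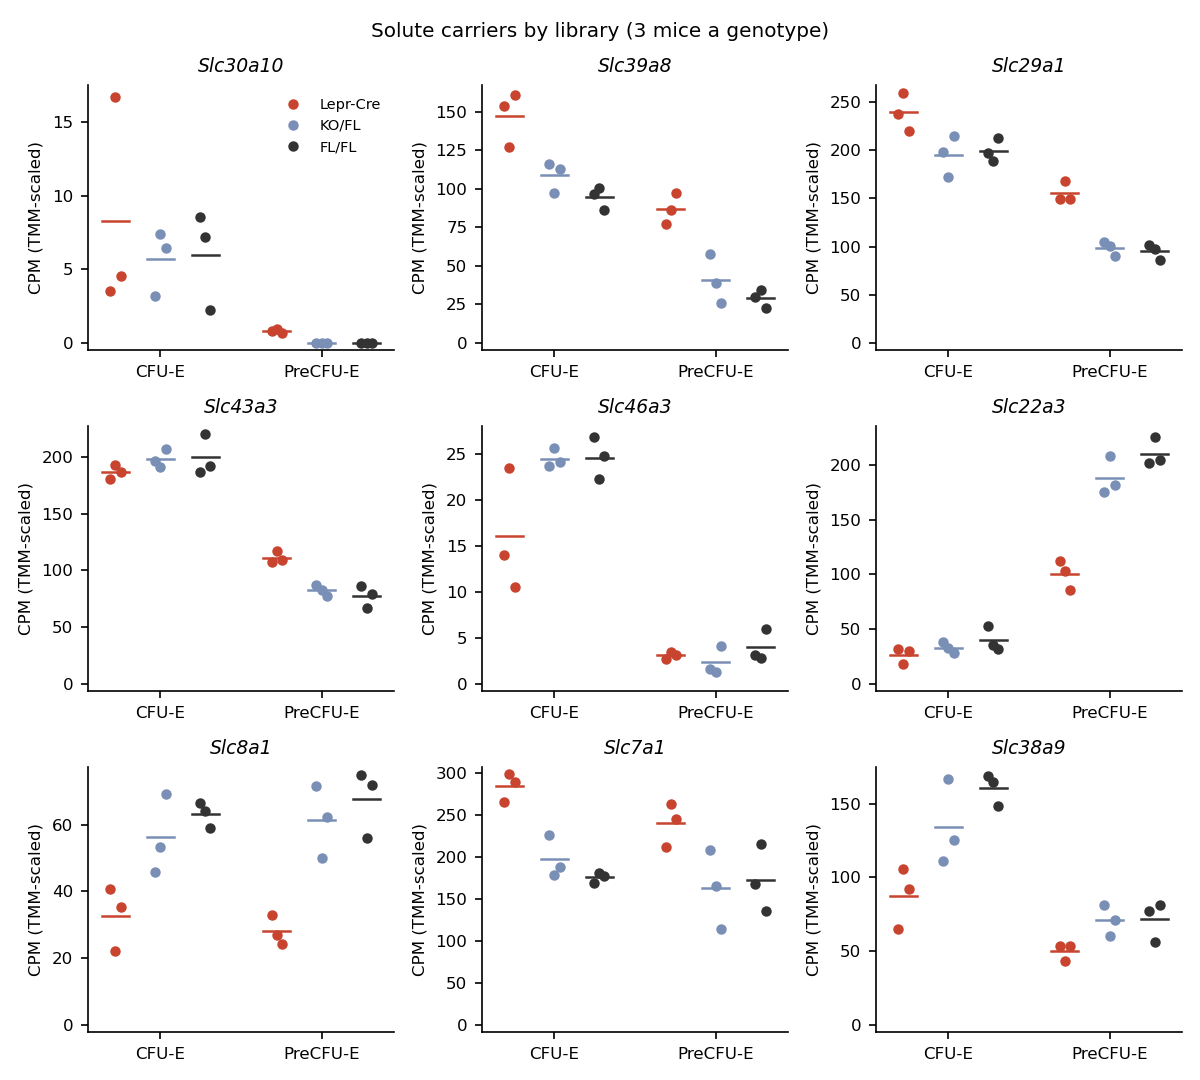
CPM of 9 members in each of 18 libraries; points are mice (A, B and C from left to right), bars the mean of 3, with CFU-E at the left and PreCFU-E at the right of each panel and Lepr-Cre, KO/FL and FL/FL in that order. Slc39a8 and Slc29a1 run higher in Lepr-Cre libraries of PreCFU-E, Slc8a1 lower at both stages, and Slc22a3 is lower in the CFU-E than in the PreCFU-E library of every mouse.

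Carriers of nucleosides and of nucleobases were among the members that were higher in CFU-E in every genotype and higher in Lepr-Cre PreCFU-E. Slc29a1, the equilibrative nucleoside transporter ENT1, had 238, 259.9 and 221 CPM in Lepr-Cre CFU-E, against 198, 173 and 215 CPM in KO/FL and 197, 189 and 213 CPM in FL/FL CFU-E. Its PreCFU-E values were 149, 168 and 149 CPM in Lepr-Cre PreCFU-E, against 104, 101 and 90.05 CPM in KO/FL and 102, 97.1 and 86.4 CPM in FL/FL PreCFU-E. Lepr-Cre libraries were above all others at both stages, with a difference from FL/FL of log2 0.27, adjusted p = 0.182 in CFU-E and log2 0.72 ± 0.12 SE, adjusted p = 5.34e-04 in PreCFU-E. Against KO/FL the PreCFU-E difference was log2 0.66 ± 0.12 SE, adjusted p = 0.00304. The step was log2 0.62 in Lepr-Cre, 0.98 in KO/FL and 1.08 in FL/FL (adjusted p = 3.36e-04, 1.41e-07 and 1.65e-08). Slc29a1 shares 275 exon bases with the antisense model Gm17080.

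Slc43a3, an equilibrative carrier of purine nucleobases, was higher in Lepr-Cre mice at the earlier stage. In CFU-E the values were 181, 193 and 187 CPM in Lepr-Cre CFU-E, against 197, 191 and 208 CPM in KO/FL and 187, 220.4 and 193 CPM in FL/FL CFU-E, and the genotypes overlapped. It had 107, 117 and 109.5 CPM in Lepr-Cre PreCFU-E, against 86.9, 82.99 and 77.7 CPM in KO/FL and 86.2, 66.9 and 79.5 CPM in FL/FL PreCFU-E, with all Lepr-Cre libraries above the rest. Lepr-Cre exceeded FL/FL by log2 0.53 ± 0.13 SE, adjusted p = 0.0166 in PreCFU-E, a call lost without FL/FL PreCFU-E B or C or Lepr-Cre PreCFU-E B (adjusted p 0.0503 to 0.0997), and differed from it by log2 -0.09, adjusted p = 0.728 in CFU-E. The steps were log2 0.75, 1.26 and 1.37 in Lepr-Cre, KO/FL and FL/FL, each past the threshold under all alternatives. The Lepr-Cre step differed from that of FL/FL by log2 -0.62 ± 0.15 SE, adjusted p = 0.0626, and by log2 -0.63, adjusted p = 0.0108 with the mouse as a block. Of the 11 members of the class, 2 were higher in Lepr-Cre PreCFU-E against FL/FL and none lower, the class median being log2 0.10. The shares of all genes there were 2.89% higher and 3.24% lower. In CFU-E edgeR called none of the class (4 at an unadjusted p under 0.05, 1 by DESeq2), against 2.08% and 2.75% of all genes. Slc17a9, the vesicular nucleotide transporter, ran the other way between the stages: it was lower in CFU-E of both the KO/FL and the FL/FL mice (log2 -2.37 and -2.21, adjusted p = 0.0146 and 0.0188), from a low level of 2.14 CPM per kb, the KO/FL call being lost without KO/FL PreCFU-E C or KO/FL CFU-E A or C (adjusted p 0.0532 to 0.0789) and the FL/FL call without FL/FL PreCFU-E B or FL/FL CFU-E B or C (adjusted p 0.0619 to 0.0689).

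Among amino acid carriers, 3 of 23 were higher in CFU-E of Lepr-Cre mice, 4 in KO/FL and 5 in FL/FL, with 0, 0 and 1 lower, against 3.0%, 6.89% and 8.99% of all genes called higher. The 3 called in every genotype move or sense different amino acids: Slc16a10 carries aromatic ones, Slc43a1 (LAT3) carries branched-chain and other large neutral ones, and Slc38a9 sits on lysosomes, where it signals arginine to mTORC1. Slc16a10 had 277, 244 and 231 CPM in FL/FL CFU-E, against 131, 93.5 and 109 CPM in FL/FL PreCFU-E, with steps of log2 0.85, 1.06 and 1.18 in Lepr-Cre, KO/FL and FL/FL. Slc43a1 had steps of log2 0.70, 0.69 and 0.87, and genotype differences from log2 -0.15 to 0.11. Slc38a5, an exporter and importer of glutamine, asparagine, histidine and glycine, was higher in CFU-E of FL/FL mice (log2 0.57, adjusted p = 0.00218).

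Slc38a9 also differed between genotypes. Its values were 64.8, 106 and 92.3 CPM in Lepr-Cre CFU-E, against 111, 167 and 125 CPM in KO/FL and 169, 165 and 148 CPM in FL/FL CFU-E. In PreCFU-E they were 53.5, 43.1 and 53.4 CPM in Lepr-Cre PreCFU-E, against 81.1, 60.3 and 71.2 CPM in KO/FL and 77.5, 56.2 and 81.6 CPM in FL/FL PreCFU-E. All 3 Lepr-Cre libraries lay below every other library of their stage. Lepr-Cre CFU-E differed from FL/FL by log2 -0.87 ± 0.17 SE, adjusted p = 0.00482, a call that held under all 11 alternatives. The differences in PreCFU-E were log2 -0.52, adjusted p = 0.0726 against FL/FL, and log2 -0.50, adjusted p = 0.00753 with the replicate letter as a block.

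Slc7a1, the cationic amino acid transporter CAT1, was called by edgeR in Lepr-Cre CFU-E against both other genotypes. It had 265, 299 and 289 CPM in Lepr-Cre CFU-E, against 226, 179 and 188 CPM in KO/FL and 169.7, 181 and 177 CPM in FL/FL CFU-E, the Lepr-Cre libraries standing above the rest. The differences were log2 0.70 ± 0.11 SE, adjusted p = 5.27e-04 against FL/FL and log2 0.53 ± 0.11 SE, adjusted p = 0.0193 against KO/FL, the second lost without KO/FL CFU-E B or C or Lepr-Cre CFU-E B or C (adjusted p 0.0589 to 0.184). In PreCFU-E the values were 212, 263 and 245 CPM in Lepr-Cre PreCFU-E, against 209, 166 and 114 CPM in KO/FL and 168, 216 and 136 CPM in FL/FL PreCFU-E, and the groups overlapped (log2 0.48, adjusted p = 0.235 against FL/FL). Slc7a5 had 307, 409.6 and 310.0 CPM in Lepr-Cre CFU-E, against 249, 274 and 242 CPM in KO/FL and 223, 246 and 235 CPM in FL/FL CFU-E and rose in Lepr-Cre CFU-E by log2 0.56 ± 0.12 SE, adjusted p = 0.00609 against FL/FL, lost without Lepr-Cre CFU-E B (adjusted p 0.056). In PreCFU-E it had 325, 373 and 321 CPM in Lepr-Cre PreCFU-E, against 295, 284 and 233 CPM in KO/FL and 259.8, 310.4 and 211 CPM in FL/FL PreCFU-E, with log2 0.39, adjusted p = 0.0715 against FL/FL and log2 0.40, adjusted p = 1.97e-04 with the letter as a block. Its partner Slc3a2 differed by log2 0.20 in CFU-E and 0.29 in PreCFU-E (adjusted p = 0.376 and 0.168).

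Other amino acid carriers had no call between the genotypes by edgeR without a block, though DESeq2 called some. Lepr-Cre against FL/FL differed in CFU-E by log2 0.42, adjusted p = 0.171 for Slc1a5, which takes up glutamine and other neutral amino acids, by log2 0.32 for its relative Slc1a4, and by log2 0.21 and 0.03 for the glutamine transporters Slc38a1 and Slc38a2. Slc6a9, the glycine transporter GLYT1 that supplies glycine for haem, was low at 1.03 CPM per kb. Its values were 6.14, 12.96 and 9.8 CPM in Lepr-Cre CFU-E, against 4.38, 7.71 and 2.3 CPM in KO/FL and 4.09, 2.82 and 2.84 CPM in FL/FL CFU-E, and 5.3, 2.26 and 2.45 CPM in Lepr-Cre PreCFU-E, against 0.274, 1.11 and 0 CPM in KO/FL and 0.728, 2.37 and 0.829 CPM in FL/FL PreCFU-E. Its step passed in KO/FL (log2 3.25, adjusted p = 0.00635) and was log2 1.52 in Lepr-Cre and 1.32 in FL/FL; 1429 of its exon bases lie opposite Ccdc24. Slc7a6, a light chain exchanging cationic for neutral amino acids, fell in FL/FL CFU-E (log2 -2.35, adjusted p = 0.019), and its relative Slc7a7 rose there (log2 1.23, adjusted p = 0.0192). The first of these calls was lost without FL/FL PreCFU-E A or B or FL/FL CFU-E A or C (adjusted p 0.0509 to 0.0768) and the second without FL/FL PreCFU-E B or FL/FL CFU-E A or B (adjusted p 0.0527 to 0.145). By DESeq2, Lepr-Cre CFU-E differed from FL/FL for Slc7a6 (log2 2.51, adjusted p = 0.0314), Slc6a9 (log2 1.58, adjusted p = 0.035) and Slc38a6 (log2 -2.47, adjusted p = 0.0114), of a neutral amino acid transporter family. It differed from KO/FL for Slc7a5 (log2 0.43, adjusted p = 0.0358) and Slc38a9 (log2 -0.61, adjusted p = 0.0372).

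Genes that act beside these transporters were counted too. Of 15 tested genes of the amino acid stress response driven by ATF4, which also induces several amino acid transporters, 6 were higher and none lower in Lepr-Cre CFU-E against FL/FL, with a median of log2 0.71 against 0.00 for all genes. In PreCFU-E 4 were higher and none lower, with a median of log2 0.27. Over all genes 2.08% were called higher and 2.75% lower in CFU-E, and 2.89% and 3.24% in PreCFU-E. The 6 called in CFU-E were Atf4, Psat1, Psph, Phgdh, Shmt2 and Mthfd2. Others of the list were flat or lower there without a call: Asns and Aldh18a1 (log2 -0.01 each), Ddit3 (-0.28), Sesn2 (-0.55) and Ddit4 (-1.02). Atf5, Cebpb, Nupr1 and Pycr1 lay between log2 0.29 and 3.24 there, also without a call. Against KO/FL, 2 of the 15 (Shmt2 and Mthfd2) were higher in CFU-E, with a median of log2 0.46, and 3 (Atf4, Shmt2 and Mthfd2) in PreCFU-E, with a median of log2 0.23, and none was lower. Mthfd2, a mitochondrial folate enzyme, averaged 138 ± 18.7 CPM in Lepr-Cre CFU-E and 52.02 ± 8.77 CPM in FL/FL CFU-E (log2 1.41 ± 0.17 SE, adjusted p = 2.92e-05). In PreCFU-E it averaged 90.7 ± 7.65 CPM in Lepr-Cre and 36.7 ± 4.23 CPM in FL/FL (log2 1.31 ± 0.19 SE, adjusted p = 6.93e-05). Atf4 itself differed from FL/FL by log2 0.58 ± 0.13 SE, adjusted p = 0.0101 in CFU-E and log2 0.73 ± 0.12 SE, adjusted p = 3.23e-04 in PreCFU-E. From KO/FL it differed by log2 0.34, adjusted p = 0.259 in CFU-E and log2 0.64, adjusted p = 0.00287 in PreCFU-E. Of the list's transporters, 2 of 7 tested (Slc7a1 and Slc7a5) were higher in Lepr-Cre CFU-E against FL/FL, with a median of log2 0.42, and 0 of 8 in PreCFU-E by edgeR (3 at an unadjusted p under 0.05, 0 by DESeq2), with a median of log2 0.40. Among 17 genes of mTORC1 and its amino acid sensing edgeR called none in either cell type (3 and 2 at an unadjusted p under 0.05, 0 and 0 by DESeq2). Of 8 genes for buffering zinc and copper it called none (3 and 2 unadjusted, 2 and 0 by DESeq2). In CFU-E against PreCFU-E 2, 1 and 1 of them were higher in Lepr-Cre, KO/FL and FL/FL, Atp7b in each, against 3.0%, 6.89% and 8.99% of all genes.

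Exchangers of calcium and other ions made up 3 of the 4 members lower in Lepr-Cre CFU-E than in FL/FL CFU-E. Slc8a1, the sodium-calcium exchanger NCX1, had 40.6, 22.1 and 35.3 CPM in Lepr-Cre CFU-E, against 45.9, 53.4 and 69.2 CPM in KO/FL and 66.6, 64.1 and 58.9 CPM in FL/FL CFU-E. In PreCFU-E it had 32.9, 26.997 and 24.1 CPM in Lepr-Cre PreCFU-E, against 71.5, 50.02 and 62.4 CPM in KO/FL and 74.8, 56.1 and 72.02 CPM in FL/FL PreCFU-E. No Lepr-Cre library reached the lowest of the other genotypes at its stage. The difference from FL/FL was log2 -0.94 ± 0.21 SE, adjusted p = 0.00915 in CFU-E and log2 -1.27 ± 0.19 SE, adjusted p = 1.03e-04 in PreCFU-E, both held under all 11 alternatives, and that from KO/FL was log2 -0.77, adjusted p = 0.072 in CFU-E and log2 -1.13 ± 0.19 SE, adjusted p = 0.00105 in PreCFU-E. The stages did not differ past the threshold in any genotype (log2 0.23, -0.13 and -0.09 in Lepr-Cre, KO/FL and FL/FL). Part of its exons, 296 bases, lies opposite another model. The promoter window in the table (chr17:81738338-81738637, minus strand) is printed because it holds 4 GATA motifs, in capitals, in a member lower in Lepr-Cre mice at both stages.
Slc8a1 promoter: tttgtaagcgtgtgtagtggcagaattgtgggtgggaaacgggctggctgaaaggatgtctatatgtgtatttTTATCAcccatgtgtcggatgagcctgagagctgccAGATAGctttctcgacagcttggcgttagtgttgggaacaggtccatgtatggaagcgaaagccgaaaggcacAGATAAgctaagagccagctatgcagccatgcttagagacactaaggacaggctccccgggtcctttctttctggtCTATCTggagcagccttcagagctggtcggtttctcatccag

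Slc24a3, which exchanges sodium for calcium and potassium, had 12.4, 5.12 and 13.3 CPM in Lepr-Cre CFU-E, against 22.8, 13.5 and 19.5 CPM in KO/FL and 35.7, 21.7 and 26.5 CPM in FL/FL CFU-E. In PreCFU-E it had 36.3, 16.8 and 21.2 CPM in Lepr-Cre PreCFU-E, against 64.4, 47.2 and 64.2 CPM in KO/FL and 65.2, 36.1 and 38.6 CPM in FL/FL PreCFU-E. The Lepr-Cre CFU-E libraries lay below those of both other genotypes, and the differences were log2 -1.42, adjusted p = 0.0112 against FL/FL, lost without FL/FL CFU-E A (adjusted p 0.0882), and log2 -0.84 against KO/FL. In PreCFU-E Lepr-Cre was lower than KO/FL (log2 -1.25, adjusted p = 0.0271), which was lost on leaving out any KO/FL library or Lepr-Cre B or C (adjusted p 0.053 to 0.114). Slc26a1, an exchanger of sulfate and oxalate, was lower in Lepr-Cre CFU-E than in FL/FL (log2 -0.96, adjusted p = 0.00878) with 22.7, 20.6 and 34.5 CPM in Lepr-Cre CFU-E, against 53.8, 45.8 and 52.9 CPM in FL/FL CFU-E. It was higher in CFU-E than in PreCFU-E of both the KO/FL and the FL/FL mice by log2 1.12 and 0.96, the FL/FL call being lost without FL/FL PreCFU-E B (adjusted p 0.0616). Slc12a2, the sodium-potassium-chloride importer NKCC1, was lower in Lepr-Cre PreCFU-E (log2 -0.55, adjusted p = 0.025 against FL/FL), lost without FL/FL PreCFU-E B or C or Lepr-Cre PreCFU-E A or C (adjusted p 0.0664 to 0.121), and lower in CFU-E than in PreCFU-E of FL/FL mice (log2 -0.60, adjusted p = 0.00386).

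Slc12a4, the potassium-chloride exporter KCC1 of red cells, was higher in CFU-E of both the KO/FL and the FL/FL mice. It had 38.6, 46.4 and 38.8 CPM in Lepr-Cre CFU-E, against 34.4, 25.3 and 26.4 CPM in Lepr-Cre PreCFU-E, and 69.5, 70.5 and 43.5 CPM in FL/FL CFU-E, against 17.9, 32.5 and 15.6 CPM in FL/FL PreCFU-E. The step was log2 0.52, adjusted p = 0.194 in Lepr-Cre, log2 0.86, adjusted p = 0.0108 in KO/FL, lost without KO/FL PreCFU-E B (adjusted p 0.0752), and log2 1.49, adjusted p = 2.02e-05 in FL/FL. The Lepr-Cre and FL/FL steps differed by log2 -0.96 ± 0.33 SE, adjusted p = 0.292, and by log2 -0.99, adjusted p = 0.0412 with the mouse as a block. Of 16 ion carriers 0 were higher and 3 lower in Lepr-Cre CFU-E against FL/FL, and 0 and 2 in PreCFU-E, and the class medians were log2 -0.09 and 0.03. Over all genes the shares higher and lower were 2.08% and 2.75% in CFU-E and 2.89% and 3.24% in PreCFU-E. Slc4a2, an anion exchanger that shares 694 exon bases with Fastk on the opposite strand, had steps of log2 -0.43, -0.13 and -0.39 and no call.

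Slc22a3, the organic cation transporter OCT3, had 31.3, 17.9 and 30.1 CPM in Lepr-Cre CFU-E, against 38.4, 32.8 and 28.01 CPM in KO/FL and 52.9, 34.96 and 31.5 CPM in FL/FL CFU-E. The PreCFU-E values were 112, 103 and 85.97 CPM in Lepr-Cre PreCFU-E, against 175, 209 and 182 CPM in KO/FL and 202, 226 and 204 CPM in FL/FL PreCFU-E. Each mouse had less in CFU-E than in PreCFU-E, with steps of log2 -1.92 ± 0.19, -2.51 ± 0.19 and -2.41 ± 0.19 SE in Lepr-Cre, KO/FL and FL/FL (adjusted p = 7.07e-07, 9.42e-10 and 1.00e-09). In PreCFU-E all Lepr-Cre libraries lay below all others, with a difference of log2 -1.06 ± 0.12 SE, adjusted p = 3.78e-06 against FL/FL and log2 -0.91 ± 0.12 SE, adjusted p = 8.20e-05 against KO/FL. Slc45a3, of a sugar transporter family, also fell in CFU-E of every genotype (log2 -2.29, -2.39 and -2.41 in Lepr-Cre, KO/FL and FL/FL), and 481 of its exon bases overlap a same-strand model. Slc18a2, the vesicular monoamine transporter, had 29 counts in CFU-E and 216 in PreCFU-E, and Slc22a15 had 10 and 208. Of 7 mast cell, basophil and eosinophil markers, all in the table, the summed level was 8.89 to 32.2 CPM in Lepr-Cre CFU-E, 32.2 to 37.9 in KO/FL CFU-E and 33.3 to 40.9 in FL/FL CFU-E. In PreCFU-E it was 48.6 to 73.4 CPM in Lepr-Cre, 126.9 to 146.9 in KO/FL and 173 to 196 in FL/FL. Nearly all of it was Gata2, which early erythroid progenitors also express, at 48.1 to 70.6 CPM in Lepr-Cre and 170.0 to 192.8 CPM in FL/FL PreCFU-E, while Cpa3 stayed at or below 2.91 CPM, Ms4a2 at or below 4.6 and Prss34 at 0. The part of such cells in these results was not tested beyond those levels.

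Slc46a3, a lysosomal membrane transporter, rose with the stage in every genotype. It had 14.05, 23.5 and 10.5 CPM in Lepr-Cre CFU-E, against 23.7, 25.6 and 24.1 CPM in KO/FL and 26.8, 22.3 and 24.7 CPM in FL/FL CFU-E. In PreCFU-E it had 2.72, 3.5 and 3.09 CPM in Lepr-Cre PreCFU-E, against 1.64, 1.25 and 4.12 CPM in KO/FL and 3.12, 2.81 and 5.94 CPM in FL/FL PreCFU-E. The stages did not overlap in any genotype, with steps of log2 2.36, 3.34 and 2.64 in Lepr-Cre, KO/FL and FL/FL (adjusted p = 1.25e-04, 5.01e-07 and 4.39e-06), while the Lepr-Cre difference from FL/FL in CFU-E was log2 -0.61, adjusted p = 0.201. Slc22a4, a carrier of ergothioneine and carnitine, was higher in CFU-E of both the KO/FL and the FL/FL mice by log2 1.98 and 2.08 (adjusted p = 0.0166 and 0.00827), the KO/FL call being lost without KO/FL PreCFU-E A or B (adjusted p 0.0594 to 0.0968). In Lepr-Cre its step was log2 1.54, adjusted p = 0.0798, and log2 1.42, adjusted p = 3.40e-05 with the mouse as a block. Slc22a23, an orphan member of the organic ion family, rose in KO/FL and FL/FL CFU-E by log2 0.80 and 1.02 and stood at log2 0.40 in Lepr-Cre. Its Lepr-Cre and FL/FL steps differed by log2 -0.62, adjusted p = 0.45.

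Among sugar and monocarboxylate carriers, 2 of 15 were higher in Lepr-Cre than in FL/FL mice, the same pair at both stages. The share of all genes called higher was 2.08% in CFU-E and 2.89% in PreCFU-E. Slc16a6, of the monocarboxylate transporter family, had 152, 175 and 175 CPM in Lepr-Cre CFU-E, against 112, 132 and 89.9 CPM in KO/FL and 128, 127 and 86.5 CPM in FL/FL CFU-E. In PreCFU-E the values were 112, 141 and 148 CPM in Lepr-Cre PreCFU-E, against 91.8, 85.2 and 87.1 CPM in KO/FL and 92.8, 90.7 and 90.4 CPM in FL/FL PreCFU-E. Lepr-Cre libraries were above all others at both stages. The differences from FL/FL were log2 0.57 ± 0.15 SE, adjusted p = 0.0348 in CFU-E and log2 0.56 ± 0.13 SE, adjusted p = 0.00891 in PreCFU-E, and from KO/FL log2 0.60, adjusted p = 0.0677 and log2 0.60, adjusted p = 0.0112. The CFU-E call was lost on leaving out any 1 of the 6 libraries (adjusted p 0.0505 to 0.119), the PreCFU-E call without Lepr-Cre PreCFU-E B or C (adjusted p 0.0525 to 0.0632), and that against KO/FL without KO/FL PreCFU-E B or Lepr-Cre PreCFU-E B or C (adjusted p 0.068 to 0.0696). Antisense exons of Amz2 cover 611 of its bases.

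Slc16a1, which carries lactate and pyruvate, had 535, 591 and 507 CPM in Lepr-Cre CFU-E, against 482, 451 and 446 CPM in KO/FL and 400.2, 467 and 420.1 CPM in FL/FL CFU-E. In PreCFU-E it had 439, 509 and 414 CPM in Lepr-Cre PreCFU-E, against 395, 414 and 336 CPM in KO/FL and 334, 387 and 325 CPM in FL/FL PreCFU-E, where Lepr-Cre overlapped KO/FL. It rose by log2 0.36 ± 0.10 SE, adjusted p = 0.0498 in CFU-E and log2 0.39 ± 0.11 SE, adjusted p = 0.0451 in PreCFU-E against FL/FL. The difference from KO/FL was log2 0.25, adjusted p = 0.313 and log2 0.25, adjusted p = 0.338. The calls against FL/FL are near the threshold: the first was lost without FL/FL CFU-E A, B or C or Lepr-Cre CFU-E A or B (adjusted p 0.0749 to 0.193) and the second without FL/FL PreCFU-E A or C or Lepr-Cre PreCFU-E A or B (adjusted p 0.0824 to 0.218). Slc16a3, another lactate carrier, was low (0.599 CPM per kb) and had no call. Slc16a7, of the same family, had 63 counts in CFU-E and 257 in PreCFU-E, so it is among the members with few counts in 1 cell type. Slc2a3, a glucose transporter, was at 22.3 CPM per kb and differed by log2 0.20 and 0.13 from FL/FL in Lepr-Cre CFU-E and PreCFU-E. Slc45a4 fell in Lepr-Cre PreCFU-E (log2 -0.42, adjusted p = 0.0429 against FL/FL), lost without FL/FL PreCFU-E A, B or C or Lepr-Cre PreCFU-E B or C (adjusted p 0.0518 to 0.248), and was lower in CFU-E of KO/FL (log2 -0.56, adjusted p = 0.00155) and FL/FL mice (log2 -0.50, adjusted p = 0.00374). Slc2a9, which carries urate, had 1.07, 0.587 and 0.118 CPM in FL/FL CFU-E, against 11.8, 5.18 and 7.05 CPM in FL/FL PreCFU-E (log2 -3.80, adjusted p = 0.00236), and its Lepr-Cre step was log2 0.01. The Lepr-Cre and FL/FL steps of Slc2a9 differed by log2 3.81, adjusted p = 0.192. Slc37a3 rose in FL/FL CFU-E (log2 1.06, adjusted p = 0.0368) and Slc50a1 fell in KO/FL CFU-E (log2 -1.31, adjusted p = 0.0189), the first lost without FL/FL PreCFU-E A or B or FL/FL CFU-E A, B or C (adjusted p 0.0562 to 0.191) and the second without KO/FL PreCFU-E C or KO/FL CFU-E A or C (adjusted p 0.0659 to 0.0972).

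Of the 36 mitochondrial carriers, the largest class, edgeR called none in CFU-E, Lepr-Cre against FL/FL (7 at an unadjusted p under 0.05, 1 by DESeq2), and 1 in PreCFU-E, with class medians of log2 -0.08 and 0.01. The shares of all genes called higher and lower were 2.08% and 2.75% in CFU-E and 2.89% and 3.24% in PreCFU-E. The carrier called was Slc25a23, a calcium-regulated exchanger of ATP-magnesium for phosphate. It had 11.4, 18.98 and 17.5 CPM in Lepr-Cre PreCFU-E, against 27.7, 41.8 and 29.9 CPM in KO/FL and 39.1, 48.8 and 32.6 CPM in FL/FL PreCFU-E, and the Lepr-Cre libraries lay below all others. The differences were log2 -1.32 ± 0.24 SE, adjusted p = 0.0011 against FL/FL and log2 -1.06 ± 0.24 SE, adjusted p = 0.0162 against KO/FL, the second lost without KO/FL PreCFU-E B or Lepr-Cre PreCFU-E A (adjusted p 0.103 to 0.141). It also fell in CFU-E against PreCFU-E of both the KO/FL and the FL/FL mice (log2 -0.95 and -0.86). Those 2 calls were lost without KO/FL PreCFU-E B or KO/FL CFU-E B (adjusted p 0.133 to 0.135) and without FL/FL PreCFU-E A or B or FL/FL CFU-E B or C (adjusted p 0.051 to 0.143). Its relative Slc25a24 rose in the same steps by log2 0.80 and 0.81 (adjusted p = 0.00956 and 0.00673), lost without KO/FL PreCFU-E B or KO/FL CFU-E A (adjusted p 0.0563 to 0.0863) and without FL/FL PreCFU-E B or FL/FL CFU-E B (adjusted p 0.0593 to 0.0619).

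Slc25a12, the aspartate-glutamate carrier, was higher in CFU-E of both the KO/FL and the FL/FL mice by log2 0.75 and 0.71 (adjusted p = 0.00134 and 0.00167), and stood at log2 0.24 in Lepr-Cre. Its Lepr-Cre and FL/FL steps differed by log2 -0.47, adjusted p = 0.606. Slc25a44, which carries branched-chain amino acids into mitochondria, rose in FL/FL CFU-E (log2 0.57, adjusted p = 0.00169), and Slc25a51, the NAD carrier, in KO/FL CFU-E (log2 0.48, adjusted p = 0.00175). The abundant Slc25a5 had 407, 374 and 374 CPM in Lepr-Cre CFU-E, against 322, 313 and 382 CPM in KO/FL and 266, 288 and 381 CPM in FL/FL CFU-E and differed by log2 0.31, adjusted p = 0.16 from FL/FL. Slc25a3 and Slc25a4 differed by log2 0.21 and 0.59 in that comparison (adjusted p = 0.454 and 0.0615). Slc25a28, the iron carrier mitoferrin 2, differed by log2 -0.36 in CFU-E and -0.51 in PreCFU-E, without a call, and its steps lay between log2 -0.05 and 0.18. Slc25a21 varied widely between mice, with 244, 325 and 642 CPM in Lepr-Cre CFU-E, against 344, 579.6 and 706 CPM in KO/FL and 617, 608 and 489 CPM in FL/FL CFU-E.

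Of 10 carriers of vitamins, choline and cofactors, Slc19a1, the reduced folate carrier, was higher in Lepr-Cre CFU-E than in FL/FL (log2 0.47, adjusted p = 0.0438). Its values were 102, 128 and 110.0 CPM in Lepr-Cre CFU-E, against 82.4, 88.9 and 78.1 CPM in KO/FL and 84.03, 78.2 and 86.4 CPM in FL/FL CFU-E, with every Lepr-Cre library above the rest. The call was lost without FL/FL CFU-E A, B or C or Lepr-Cre CFU-E B or C (adjusted p 0.0559 to 0.186). In PreCFU-E the difference was log2 0.34, adjusted p = 0.191, and log2 0.36, adjusted p = 0.0242 with the letter as a block. Slc5a6, which carries biotin and pantothenate, fell in Lepr-Cre CFU-E against PreCFU-E (log2 -1.20, adjusted p = 0.0321), lost without Lepr-Cre PreCFU-E B or C or Lepr-Cre CFU-E B or C (adjusted p 0.0883 to 0.127). Slc23a2, an ascorbate carrier, fell in FL/FL CFU-E (log2 -0.94, adjusted p = 0.0417), lost without FL/FL PreCFU-E A, B or C or FL/FL CFU-E B or C (adjusted p 0.0596 to 0.225). Slc44a1, a choline transporter, was not called, with steps of log2 -0.23, 0.04 and 0.17. Slc20a1, the phosphate importer PiT1, had 152, 145 and 137 CPM in FL/FL CFU-E, against 97.8, 109 and 91.9 CPM in FL/FL PreCFU-E and rose in CFU-E of both the KO/FL and the FL/FL mice by log2 0.47 and 0.54, the KO/FL call being lost without KO/FL PreCFU-E A or B or KO/FL CFU-E B (adjusted p 0.0537 to 0.0734). Slc10a7 rose in FL/FL CFU-E (log2 0.63, adjusted p = 0.0145), lost without FL/FL PreCFU-E B or FL/FL CFU-E A (adjusted p 0.0895 to 0.149), and was at log2 -0.10 in Lepr-Cre. Its Lepr-Cre and FL/FL steps differed by log2 -0.74, adjusted p = 0.34.

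Of the carriers left out by name, which include the erythroid anion exchanger, the iron importer and exporter and the mitochondrial iron and glycine carriers, 3 of 6 tested were higher in CFU-E than in PreCFU-E of Lepr-Cre mice, 5 in KO/FL and 5 in FL/FL, against 3.0%, 6.89% and 8.99% of all genes, and none was lower.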

How the data were processed

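RNA was sequenced from 5000 to 10000 sorted cells per library with a stranded, low-input total RNA kit, as the labels' protocols state. Per the submitters' processing notes, STAR 2.5.2b aligned the reads to mm10 and HTSeq counted them. Neither the version nor the strand setting of HTSeq was found in the sources used here, so genes that overlap on opposite strands may not be told apart (38 members share 100 or more exon bases with another gene). The authors deposited raw counts per gene symbol, which every test here uses. They also deposited RPKM values, whose length divisor matched the gene's own genomic span (within 1 base) for 331 of 10070 genes and another gene's span for 9519. The RPKM values were therefore replaced, for the order of levels, by CPM per kb of exon from GENCODE M21.

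Counts were tested with edgeR 4.0.16 (filterByExpr, TMM, robust quasi-likelihood F test, two-sided) in R 4.3.3 with limma 3.58.1. Genotypes were compared in 1 fit of the 9 libraries of a cell type, stages and interactions in 1 fit of all 18, with Benjamini-Hochberg adjustment over all genes tested and a threshold of 0.05. Standard errors were taken as log2 fold change over the root of the F statistic. The procedure was run on simulated counts of well-counted genes, with changes larger than most differences given here. It does not show how well smaller differences or members with few counts are recovered. DESeq2 1.42.0, its size factors, no filter, other sets of libraries, a replicate block and leaving out each library were the alternatives. Depth ran from 3541066 to 9389122 counts; floors cover counting error only, and the labels name separate mice for the replicates. No 2 libraries agreed within sampling noise. Tables and figures were made with Python 3.11.15, pandas 2.3.3, numpy 2.4.6 and matplotlib 3.10.9.

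Named members were those past the threshold, up to 10 a direction (Lepr-Cre against FL/FL and the FL/FL stage step) or 6 (other comparisons), the 3 of smallest p where fewer than 3 passed, a list of transporters of general interest and the leading members by level. The members and all lists were chosen with earlier results of these data known. Each mouse gave both cell types, by its sample number in the labels (correlation of deviations from the group means, r from 0.0873 to 0.187), so the mouse is a block for stages and interactions. Letters were taken to pair the Lepr-Cre and FL/FL PreCFU-E libraries (r from 0.115 to 0.146) and the KO/FL and FL/FL libraries of both stages (r from 0.101 to 0.168). In these all 3 correlations were above 0.1. That limit is loose, as libraries of the same mouse went down to r 0.0873. The letter block was fitted over all 9 libraries of a stage, also where a pair fell short (lowest r 0.0926 for KO/FL and Lepr-Cre PreCFU-E). The letter also follows sex, B being female, so a letter block takes up sex too. Promoter windows are from RefSeq (GRCm38.p6). Some members are not reported here by name.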

Additional observations from a re-analysis of the deposited data

Results flagged for a closer look

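For 3 members the difference between Lepr-Cre and FL/FL mice differed between the cell types when the mouse was kept as a block in edgeR's interaction test. All 3 values are negative, that is, the Lepr-Cre difference was lower in CFU-E than in PreCFU-E. The interaction was log2 -0.98 for Slc39a8 (adjusted p = 0.00368), log2 -0.63 for Slc43a3 (adjusted p = 0.0108) and log2 -0.99 for Slc12a4 (adjusted p = 0.0412). Without the block the adjusted p-values were 0.156, 0.0626 and 0.292. Of these members DESeq2, run without a block, called only Slc43a3 (log2 -0.61, adjusted p = 0.0195).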

How the results depend on the processing

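No called member changed direction under any alternative run, and 1041 of 1220 repeats of a called member stayed past the threshold. Lepr-Cre against FL/FL in CFU-E called 10 members, 17 without the filter on low counts, 16 with the replicate letter as a block and 6 to 15 on leaving out a library (6 without FL/FL A). Lepr-Cre against KO/FL in CFU-E called 1, 7 by DESeq2, 6 without the filter, 8 with the block and 0 to 1 on leaving out a library (0 without Lepr-Cre B or without either of KO/FL B and C). In PreCFU-E, Lepr-Cre against FL/FL called 11, 26 with the block and 6 to 10 on leaving out a library (6 without FL/FL C or Lepr-Cre B, 7 without Lepr-Cre C). Against KO/FL it called 7, 18 with the block and 3 to 7 on leaving out a library (3 without KO/FL B). The Lepr-Cre stage step called 18, 26 with the mouse as a block and 11 to 17 on leaving out a library (11 without CFU-E B or PreCFU-E A); the KO/FL step called 28 (34 with the block, 21 to 29) and the FL/FL step 36 (48 with the block, 24 to 35). The interaction against FL/FL called 0, 1 by DESeq2, 2 without the filter, 3 with the mouse as a block and 0 to 1 on leaving out a library (1 without FL/FL PreCFU-E A). KO/FL against FL/FL and the interaction against KO/FL called 0 under the block too. Calls over all genes shifted too. With the block in Lepr-Cre PreCFU-E against FL/FL they went from 2.89% higher and 3.24% lower to 8.3% and 7.08%. In the interaction against FL/FL they went from 0.14% and 0.214% to 0.494% and 1.35% with the mouse as a block. For most other settings the shares of all genes are not given. Those member counts are therefore not set against a background and are no result about solute carriers. The cause of these shifts was not tested.

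The block removed no call. Letters did not meet the pairing limit for Lepr-Cre against FL/FL in CFU-E or against KO/FL (lowest r 0.0747 to 0.0946), though each library correlated best with its own letter. Limits of 90 or 360 summed counts would give 160 or 134 members. Members with few counts in a group are limited by depth.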

Other observations

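Solute carriers whose symbols do not follow the Slc pattern (34 tested of 40 in the table) were counted as a group. In Lepr-Cre PreCFU-E against FL/FL, 1 was higher and 2 lower by edgeR, against 2.89% and 3.24% of all genes. Slc35d1, a carrier of nucleotide sugars, was higher, and Sfxn3, a sideroflexin of the inner mitochondrial membrane, and Mfsd2b, the sphingosine-1-phosphate exporter of red cells, were lower. In Lepr-Cre CFU-E against FL/FL edgeR called 0 (5 at an unadjusted p under 0.05, 0 by DESeq2), against 2.08% higher and 2.75% lower of all genes. Between the stages, 0 were higher and 2 lower in CFU-E of Lepr-Cre mice, 3 and 4 in KO/FL and 3 and 4 in FL/FL. Over all genes 3.0%, 6.89% and 8.99% were called higher in Lepr-Cre, KO/FL and FL/FL mice and 4.25%, 7.18% and 9.3% lower. Whether the counts of this group differ from those shares was not tested. Spns2, another sphingosine-1-phosphate transporter, was lower in CFU-E of every genotype, with log2 -2.13 in Lepr-Cre, -3.24 in KO/FL and -3.64 in FL/FL.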
